A study of Mus musculus with 12 samples.

Results

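Signalling through adrenergic, muscarinic and adenosine receptors was examined in mouse cardiomyocytes (CMs) after loss of Srf, which encodes the transcription factor serum response factor. The 9 genes, taken by symbol from a table of 23337 genes, were the receptor genes Adra1a, Adra1b, Adrb1, Chrm2 and Adora1, the G protein alpha subunit genes Gnas and Gnao1, and the adenylyl cyclase genes Adcy5 and Adcy6, and each was found in all 12 samples. KO mice were Srf-flox/flox and CTRL mice Srf-flox/+, so CTRL CMs kept an intact Srf allele, and every mouse, CTRL included, received AAV9-cTNT-Cre, a virus that drives Cre from the cardiac troponin T promoter. Virus was given on postnatal day (P) 1 with collection at P14 (neonatal KO and its CTRL), or at P60 with collection at P90 (adult KO and its CTRL), with 3 biological replicates in each of the 4 groups. CMs that had switched on a Cre-dependent fluorescent protein were sorted after collagenase perfusion. The hearts were mosaic, since only a part of their CMs was transduced, and sorted cells can include CMs that switched on the reporter without losing both Srf alleles.

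In CMs, noradrenaline and adrenaline act on beta1-adrenergic receptors, which use the stimulatory G protein Gs to switch on adenylyl cyclase, the enzyme that makes cAMP, and so raise the rate and force of the beat. Acetylcholine on M2 muscarinic receptors and adenosine on A1 receptors use the inhibitory family of G proteins, Gi and Go, which restrain adenylyl cyclase and, in pacemaker and atrial cells, open potassium channels. Alpha1-adrenergic receptors use Gq and phospholipase C instead. The cyclases of types V and VI, encoded by Adcy5 and Adcy6, are the main forms of the heart and are both inhibited by Gi.

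All positions are in mm10. Among the receptor genes, Adra1a lies at chr14:66635258-66733329 and Adra1b, on the minus strand, at chr11:43774606-43836332. Adrb1 lies in a single exon at chr19:56722372-56724862, Chrm2 at chr6:36388084-36524774 and Adora1, on the minus strand, at chr1:134199222-134235431. Gnas lies at chr2:174284320-174346742 and Gnao1 at chr8:93810838-93969388, while Adcy5 lies at chr16:35155636-35304549 and Adcy6, on the minus strand, at chr15:98589986-98607633. Counts were summed over all annotated exons of a gene. Gnas is an imprinted locus with several promoters, whose transcripts are added together here. The strand setting of the counting is not stated, and Adora1 shares 662 bp of exon with the antisense gene Mybph, whose own row held 0 to 15 counts, and Chrm2 shares 79 bp with 9330158H04Rik, whose row held 77 to 314 counts. Gnas shares 111 bp with Nespas, whose row held 0 to 3 counts.

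The sequence that serum response factor binds is called the CArG box. The 100 bases before the RefSeq start are shown for the 3 genes that moved most in neonatal KO and, as a reference, for Srf itself, whose own promoter holds the box (GRCm38.p6; 5′ to 3′ on the strand of the gene; capitals mark a CArG box, exact or with 1 of its 10 bases off).
Gnao1, chr8:93810738-93810837, plus strand: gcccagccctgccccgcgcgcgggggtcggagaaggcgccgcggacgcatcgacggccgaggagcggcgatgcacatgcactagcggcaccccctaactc
Adora1, chr1:134235458-134235557, minus strand: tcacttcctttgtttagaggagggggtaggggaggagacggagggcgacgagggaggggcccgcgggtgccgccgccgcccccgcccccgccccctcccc
Adcy5, chr16:35154764-35154863, plus strand: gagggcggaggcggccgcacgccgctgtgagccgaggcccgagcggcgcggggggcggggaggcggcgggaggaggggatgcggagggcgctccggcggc
Srf, chr17:46556163-46556262, minus strand: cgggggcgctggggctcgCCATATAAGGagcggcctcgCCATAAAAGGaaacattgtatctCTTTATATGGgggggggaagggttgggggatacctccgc
In Srf, exact boxes began 82 and 62 bases before the start, and a box with 1 base off began 39 bases before it. RefSeq windows of 250 bases before to 50 after a start were at hand for 7 of the 9 genes, 12 windows in all, and 0 of these held an exact CArG box (its consensus is the same on both strands), against 1.63% of all 32851 windows. With 1 base off allowed, 4 of the 12 windows held one, against 21.1% of all windows. These were 3 windows of Gnas and another window of Adora1, where TCTTTAAAGG began 84 bases before the start. A pair of the Gnas windows overlap and share their match, so the matches lay at 3 distinct sites. A match is a run of letters and not a measured binding site, and no match says only that the letters are not in this window. Adra1a and Adcy6 had no matched entry. The RefSeq start lay 772 bases before the first exon of the count table for Adcy5 and 26 bases before it for Adora1.

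Total counts ranged from 9740389 to 23103460 per library, so that 3 counts corresponded to 0.140 to 0.317 CPM (counts normalised to library size with TMM factors, on 1 scale for all 12 libraries). Srf, the targeted gene, lay at 49.6 to 64.3 CPM in P14 CTRL and 9.68 to 32.1 CPM in P14 KO, and at 57.5 to 80.4 CPM in P90 CTRL and 27.9 to 33.2 CPM in P90 KO. The P14 fall of 1.30 ± 0.36 on the log2 scale missed the threshold by edgeR's quasi-likelihood test (adjusted p = 0.0628) but passed in 6 of 13 other settings, among them the fit blocked by replicate number (0.0220), DESeq2 (0.00223), a fit with no low-count filter (0.0129) and a fit of all 12 samples (0.00999), and the P90 fall of 1.23 ± 0.13 passed it (adjusted p = 0.00347). The 7 ventricular CM markers summed to 63412 to 100714 CPM in every library, which fits the label. Their sum was lower in P14 KO (63412 to 69747 CPM) than in P14 CTRL (89780 to 100714 CPM), and Myh6 and Myl3 passed the test as lower. Actn2 was 1.21-fold higher in P14 KO without overlap, and Tnnt2, Ttn, Ryr2 and Myl2 were lower, but none of these passed. Among markers of other cells, the 6 of smooth muscle cells or pericytes summed to 190 to 205 CPM in P14 KO and 79.0 to 171 CPM in P14 CTRL. Of these only Cspg4 passed, as higher (115 to 130 against 31.7 to 65.8 CPM). Log2 fold changes were negative for Rgs5 (-0.36), Pdgfrb (-0.34), Cnn1 (-0.20) and Kcnj8 (-0.12), and positive for Myh11 (0.22), and none of these passed. The 6 atrial markers ranged from 303 to 1196 CPM in P14 KO and from 57.8 to 506 CPM in P14 CTRL, with Myl4 passing as higher. In P14 KO the 6 endothelial markers summed to 236 to 372 CPM and the 6 fibroblast markers to 167 to 303 CPM, both overlapping P14 CTRL. The 6 leukocyte markers reached at most 12.4 CPM in any library and the 6 erythroid markers 2.88 CPM, with the 4 globin rows at 0 throughout. The erythroid sum thus rests on Alas2 and Slc4a1. How multi-mapped reads were counted is not given, so the 0 counts of the globin rows are no measure of erythroid cells. The part of these cells in the results on the 9 genes was not tested. Y-linked genes held 3299 to 4756 counts in 3 libraries (replicate 1 of P14 CTRL, replicate 3 of P14 KO, replicate 3 of P90 CTRL) and 0 to 2 counts in the others, which include all P90 KO libraries.

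Per length of exon, Gnas was the highest of the 9 genes in every group and Chrm2 came next. In P14 CTRL, Gnas was at 218 ± 8.81 RPKM (CPM per kilobase of exon; mean ± SD, n = 3 throughout), Chrm2 at 53.4 ± 16.6, Adra1b at 30.9 ± 1.49, Adcy6 at 22.0 ± 2.63 and Adcy5 at 21.1 ± 1.37 RPKM. Adrb1 followed at 13.9 ± 4.07, Adora1 at 12.2 ± 1.92, Adra1a at 1.14 ± 0.78 and Gnao1 at 0.85 ± 0.34 RPKM. The samples of Adcy6 and Adcy5, of Adrb1 and Adora1, and of Adra1a and Gnao1 overlapped, and the other neighbours in this order did not. In P90 CTRL the order ran Gnas (178 ± 6.11 RPKM), Chrm2 (54.8 ± 3.40), Adra1b (22.3 ± 5.48), Adcy5 (19.5 ± 3.45), Adcy6 (18.5 ± 1.54), Adrb1 (13.6 ± 2.58), Adra1a (4.77 ± 0.36), Adora1 (4.44 ± 0.68) and Gnao1 (1.45 ± 0.31). Here Adra1b, Adcy5 and Adcy6 overlapped in sequence, as did Adra1a and Adora1. In P14 KO, Adora1 (24.7 ± 1.85 RPKM) stood above Adrb1 (19.1 ± 3.93) with overlapping samples, Adcy5 (9.61 ± 2.34) lay below both, and Gnao1 (5.93 ± 0.70) lay above Adra1a (1.09 ± 0.73). In P90 KO, Adcy6 (19.5 ± 2.27 RPKM), Adrb1 (16.9 ± 1.30) and Adcy5 (15.3 ± 1.52) overlapped with their neighbours in the order, and Adora1 (7.26 ± 0.57), Adra1a (4.92 ± 0.52) and Gnao1 (1.99 ± 0.15) stood apart from each other.

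**Figure D1:**
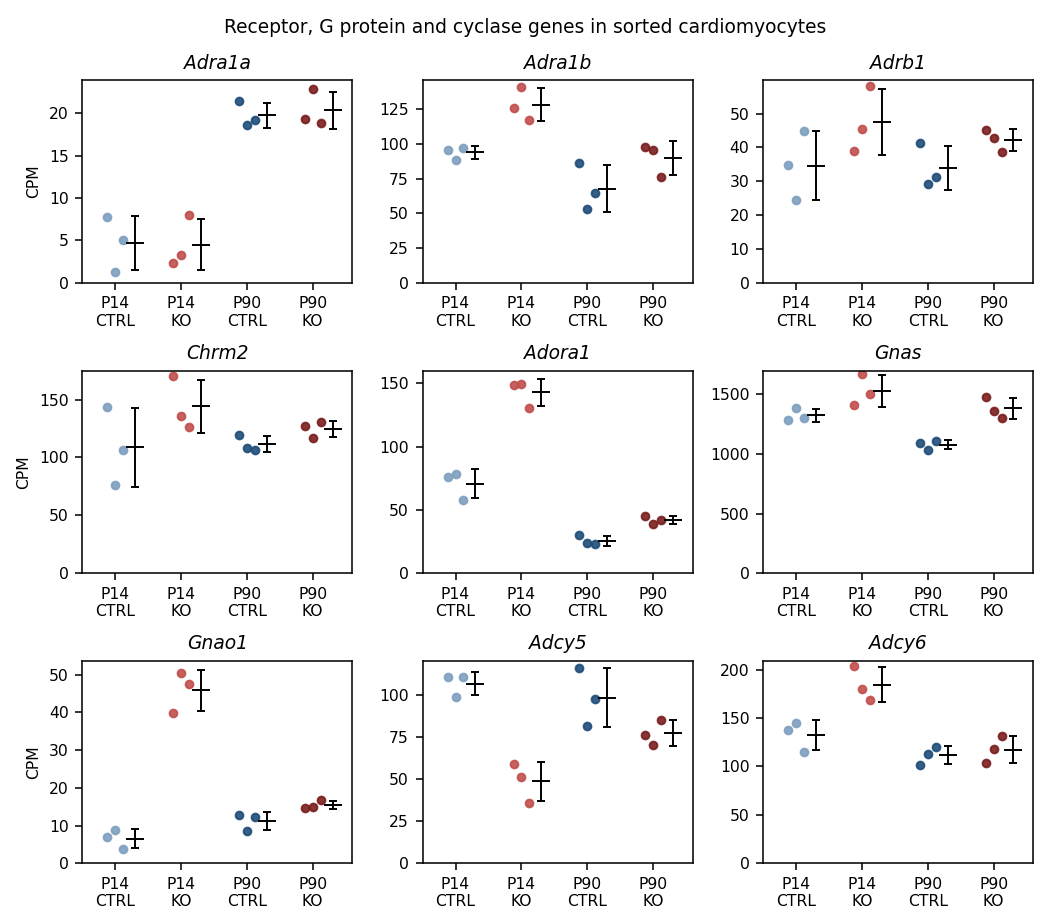
CPM of each of the 9 genes (y axis, from 0, a scale for each panel) in the 4 groups (x axis). Points are samples and the black mark and bar beside them are the mean and SD (n = 3); Gnao1 and Adora1 lie highest in P14 KO, Adcy5 lies lowest there, and Adra1a is at 18.6 CPM or more in P90 samples and at 7.97 CPM or less in P14 samples.

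The neonatal comparison asks which of these genes depend on Srf in CMs that are still maturing. In P14 KO, Gnao1 rose 6.91-fold, Adora1 rose 2.01-fold and Adra1b rose 1.36-fold, while Adcy5 fell to 45.5% of CTRL. These 4 of 9 genes passed an adjusted p of 0.05 (edgeR's quasi-likelihood test over 12546 genes), 3 as higher and 1 as lower. Of all genes tested, 8.59% passed, 3.99% as higher and 4.6% as lower. The 9 genes were chosen with earlier results of these data known. Counts among them, here and in the later comparisons, are therefore no test of the set. CPM of the KO and CTRL samples did not overlap for 6 of the 9, beside 32.7% of all genes. The median log2 fold change of the 9 was 0.45, and that of all genes was 0.00. Without P14 KO replicate 2 the number that passed was 2, and the share of all genes that passed in that smaller fit was not worked out. As these are bulk samples, fewer cells of a type and less RNA per cell cannot be told apart.

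Among the receptors, Adora1, the A1 adenosine receptor, was at 75.9, 78.4 and 58.0 CPM in the P14 CTRL samples and at 149, 149 and 130 CPM in P14 KO. All KO samples lay far above all CTRL samples, and the log2 fold change was 1.01 ± 0.14 (SE; adjusted p = 0.00875). The call held in each of 13 other settings tried. Adra1b, an alpha1-adrenergic receptor, was at 96.1, 88.9 and 97.3 CPM in CTRL and 126, 142 and 118 CPM in KO, also without overlap, with a log2 fold change of 0.45 ± 0.10 (adjusted p = 0.0349). This call was lost, with adjusted p from 0.0551 to 0.137, when P14 CTRL replicate 1 or 3 or any of the P14 KO replicates was left out, and with a term for Y-linked counts (0.0606).

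Adrb1, the main beta-adrenergic receptor of the heart, was at 34.7, 24.4 and 44.7 CPM in CTRL and 38.9, 45.4 and 58.1 CPM in KO (log2 fold change 0.46 ± 0.23, adjusted p = 0.255). Chrm2, the M2 muscarinic receptor, was at 143, 75.8 and 107 CPM in CTRL and 170, 136 and 126 CPM in KO (0.41 ± 0.22, adjusted p = 0.284). For both, KO and CTRL samples overlapped and the CTRL samples were widely spread. Adra1a, the other alpha1-adrenergic receptor of the group, was low, at 7.75, 1.30 and 5.05 CPM in CTRL and 2.29, 3.29 and 7.97 CPM in KO. Its log2 fold change of -0.05 ± 0.63 (adjusted p = 0.975) carried the widest error of the 9, and its sign varied among settings.

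Gnao1, which encodes the alpha subunit of Go, a G protein most abundant in neurons, showed the largest change of the 9. It was at 7.04, 8.93 and 3.76 CPM in P14 CTRL and at 39.8, 50.3 and 47.4 CPM in P14 KO, so the lowest KO sample lay well over the highest CTRL sample. The log2 fold change was 2.79 ± 0.28 (adjusted p = 0.00340), rank 16 by size among the 12546 genes, and the call held in each of 13 other settings. Of 8 markers of autonomic neurons or Schwann cells, only 2 had enough counts to be tested in neonatal KO, and 0 passed. The 8 summed to 12.3 to 21.2 CPM in P14 CTRL and 11.4 to 15.3 CPM in P14 KO. Of these, Dbh was at 7.81 to 16.7 CPM in P14 CTRL and 7.62 to 11.7 CPM in P14 KO. Slc18a3 was at 0 in all 6 libraries. Whether such cells had a part in the Gnao1 rise was not tested. As a share of Gnas per length of exon, Gnao1 was 0.430%, 0.506% and 0.226% in P14 CTRL and 2.21%, 2.36% and 2.47% in P14 KO. Gnas, the stimulatory alpha subunit, was at 1283, 1383 and 1302 CPM in CTRL and 1409, 1668 and 1505 CPM in KO. Its samples did not overlap, but the log2 fold change of 0.20 ± 0.11 did not pass (adjusted p = 0.301).

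The cyclases went in different directions. Adcy5 was at 111, 98.6 and 110 CPM in P14 CTRL and at 58.8, 51.5 and 35.6 CPM in P14 KO, with every KO sample below every CTRL sample (log2 fold change -1.13 ± 0.17, adjusted p = 0.0124). Without P14 KO replicate 2 its adjusted p was 0.0616, and the fold change was -1.16. Adcy6 was at 138, 145 and 115 CPM in CTRL and 204, 180 and 169 CPM in KO, again without overlap but upwards (0.47 ± 0.13). It missed the threshold (adjusted p = 0.0577) and passed in the fit blocked by replicate number (0.0340, where 12.2% of all genes passed), by DESeq2 (0.0203), with no low-count filter (0.0460), in the fit of all 12 samples (0.0193) and without P14 CTRL replicate 2 (0.0402). Per length of exon, the ratio of Adcy5 to Adcy6 was 0.955, 0.812 and 1.15 in P14 CTRL and 0.343, 0.340 and 0.252 in P14 KO. The cyclases were thus near equal in P14 CTRL, and Adcy6 exceeded Adcy5 in every P14 KO sample. With 3 samples on each side an exact permutation test of this ratio cannot give a p below 0.1.

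**Figure D2:**
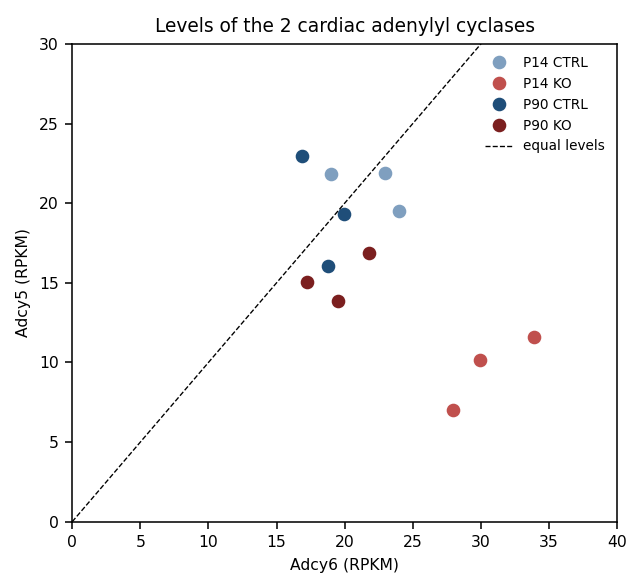
Level of Adcy5 (y axis, RPKM) against that of Adcy6 (x axis, RPKM) in the 12 samples, coloured by group, with a dashed line at equal levels. The 3 P14 KO samples lie far below the line, at ratios of 0.252 to 0.343, and the P90 KO samples lie just below it, at 0.710 to 0.874.

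The adult comparison asks whether the same genes depend on Srf once CMs have matured. Only Adora1 passed the test in P90 KO, as higher, 1 of 9 genes beside 0.39% of the 11808 genes tested (0.237% as higher). As above, the 9 were chosen with earlier results known, so this count is no test of the set. CPM of KO and CTRL did not overlap for 3 of the 9 (Adora1, Gnao1 and Gnas, all higher in KO), beside 21% of all genes in either direction and 11% as higher. The median log2 fold change of the 9 was 0.30, and that of all genes was 0.01. The 7 ventricular CM markers summed to 72151 to 74460 CPM in P90 KO and 82583 to 95014 CPM in P90 CTRL, and 0 of them passed. Sums of the smooth muscle cell or pericyte markers overlapped (69.5 to 99.8 and 71.1 to 101 CPM).

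Adora1 was at 30.2, 23.7 and 23.1 CPM in P90 CTRL and at 45.5, 38.8 and 41.8 CPM in P90 KO, with no KO sample as low as the highest CTRL sample (log2 fold change 0.69 ± 0.12, 1.62-fold, adjusted p = 0.0485). The call lay close to the threshold. It was lost without P90 CTRL replicate 2 or 3 or any P90 KO replicate (adjusted p from 0.0710 to 0.176). It was also lost with a term for Y-linked counts (0.166) and in a fit of all 12 samples (0.111). P90 CTRL replicate 3 was the only P90 library with Y-linked counts (3299), so that term in effect leaves it out. The fits with that term and without that sample are not separate checks. The log2 fold change stayed between 0.62 and 0.82 in all 13 settings. Gnas was at 1089, 1035 and 1107 CPM in CTRL and 1480, 1365 and 1304 CPM in KO. Its log2 fold change of 0.35 ± 0.09 missed the threshold by edgeR (adjusted p = 0.114). By DESeq2 it passed (0.0103, beside 3.94% of the 8910 genes given an adjusted p).

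Gnao1 was at 12.7, 8.46 and 12.4 CPM in P90 CTRL and 14.6, 14.9 and 16.7 CPM in P90 KO (0.43 ± 0.16, adjusted p = 0.228). The KO samples lay just over the CTRL samples, and below all P14 KO samples. Adcy5 was at 116, 81.4 and 97.7 CPM in CTRL and 76.1, 70.1 and 85.4 CPM in KO (-0.37 ± 0.13, adjusted p = 0.208), and Adcy6 at 102, 113 and 120 CPM in CTRL and 104, 118 and 131 CPM in KO (0.06 ± 0.12, adjusted p = 0.837). Both overlapped between the groups. The ratio of Adcy5 to Adcy6 was 1.36, 0.857 and 0.968 in P90 CTRL and 0.874, 0.710 and 0.775 in P90 KO, which also overlapped.

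The remaining receptors overlapped between P90 KO and CTRL. Adra1b was at 86.1, 53.2 and 64.5 CPM in CTRL and 97.8, 96.1 and 76.0 CPM in KO (0.39 ± 0.15, adjusted p = 0.251). Adrb1 was at 41.2, 29.1 and 31.3 CPM in CTRL and 45.2, 42.6 and 38.7 CPM in KO (0.30 ± 0.13, adjusted p = 0.283). Adra1a and Chrm2 differed least among the receptors, with log2 fold changes of 0.03 ± 0.12 (adjusted p = 0.935) and 0.15 ± 0.09 (adjusted p = 0.464).

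Whether the effect of Srf loss differed between the stages was tested directly in a fit of all 12 samples. The value tested was the neonatal minus the adult KO effect. Time from virus to collection also differed, P1 to P14 in neonatal and P60 to P90 in adult mice. Stage therefore cannot be told apart from that time, or from the processing of each stage's samples. Gnao1 was the 1 gene of the 9 that passed, beside 1.78% of the 12841 genes tested (0.818% in its direction). Its KO effect was 2.36 ± 0.34 larger on the log2 scale in neonatal than in adult CMs (adjusted p = 0.0154). Without P90 CTRL replicate 3 the adjusted p was 0.0517 and without P90 KO replicate 2 it was 0.0616, while the difference was 2.30 and 2.35. For Adcy5, which fell more in neonatal KO, the difference of -0.76 ± 0.23 did not pass (adjusted p = 0.105). It passed in the fit blocked by replicate number (0.0486, where 5.35% of all genes passed) and with no low-count filter (0.0428). By DESeq2 it also passed (0.0317, beside 9.39% of the 9717 genes given an adjusted p). The difference for Adcy6 did not pass (0.42 ± 0.18, adjusted p = 0.216). Adora1 was higher in KO at both stages, and the difference between the stages was 0.33 ± 0.19 (adjusted p = 0.373). For Adra1a, Adra1b, Adrb1, Chrm2 and Gnas the differences lay between -0.13 and 0.27, with adjusted p from 0.615 to 0.970, and that of Srf was -0.06 ± 0.42 (adjusted p = 0.958).

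**Figure D3:**
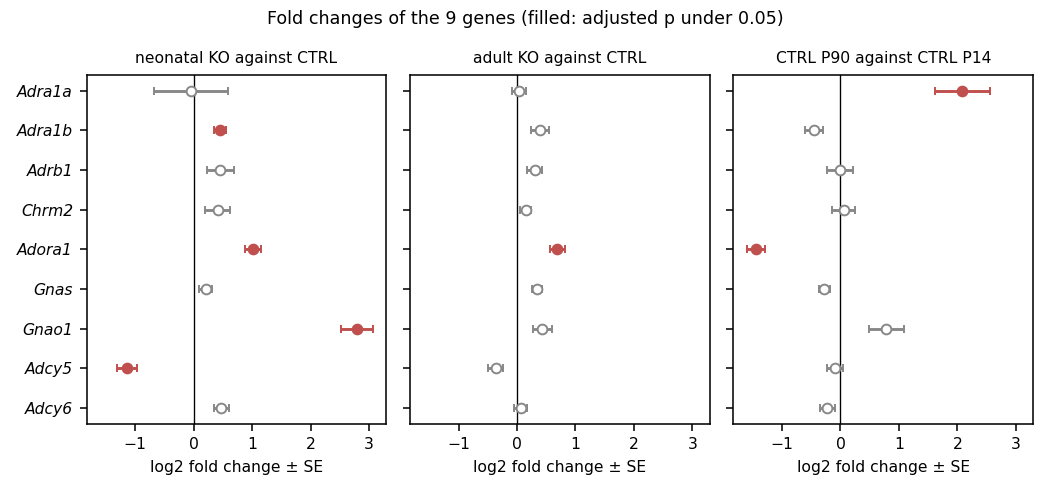
Log2 fold change ± SE (x axis, the same scale in each panel) of the 9 genes (rows) in neonatal KO against CTRL, adult KO against CTRL, and CTRL P90 against CTRL P14; filled red points have an adjusted p under 0.05. Gnao1 lies at 2.79 in the neonatal panel and 0.43 in the adult panel, and Adora1 lies on the positive side in both KO panels and at -1.44 in the CTRL panel.

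CTRL CMs at P90 were compared with CTRL CMs at P14 to place the KO changes beside those between the stages. These CTRL CMs kept an intact Srf allele but had received Cre, so they are not unaltered CMs. Adora1 fell to 36.8% and Adra1a rose 4.24-fold, and these were the 2 of 9 genes that passed, beside 29.3% of 12294 genes tested (14.9% as lower and 14.5% as higher). CPM of the stages did not overlap for 4 of the 9, beside 44.8% of all genes. Without P14 CTRL replicate 2 the number that passed was 4, with no share of all genes worked out for that fit. This comparison uses the same P14 CTRL samples as the neonatal comparison, so the values of both are set side by side only. Stage cannot be told apart from the time since virus or from the processing of each stage's samples. The 6 endothelial markers summed to 184 to 405 CPM in P14 CTRL and 166 to 219 CPM in P90 CTRL, and the 6 fibroblast markers to 96.0 to 287 and 45.5 to 61.9 CPM; their part in these changes was not tested.

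Adora1 went from 58.0 to 78.4 CPM in P14 CTRL to 23.1 to 30.2 CPM in P90 CTRL (log2 fold change -1.44 ± 0.16, adjusted p = 0.000411). Adra1a went from 1.30 to 7.75 CPM to 18.6 to 21.4 CPM (2.08 ± 0.47, adjusted p = 0.0108). The stages were fully apart for both genes, and both calls held in each of 13 other settings. KO samples followed the same order for Adra1a, at 2.29 to 7.97 CPM in P14 KO and 18.9 to 22.8 CPM in P90 KO. The ratio of Adra1b to Adra1a per length of exon was 16.8 to 93.1 in P14 CTRL and 3.88 to 5.45 in P90 CTRL.

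The other genes did not pass between CTRL stages. Adra1b was lower at P90 without overlap (-0.45 ± 0.16, adjusted p = 0.0617), as was Gnas (-0.28 ± 0.10, adjusted p = 0.0598). Gnao1 was higher with overlap (0.78 ± 0.30, adjusted p = 0.0804). Adrb1 (-0.01 ± 0.22, adjusted p = 0.974), Chrm2 (0.05 ± 0.20, adjusted p = 0.864), Adcy5 (-0.10 ± 0.14, adjusted p = 0.620) and Adcy6 (-0.23 ± 0.13, adjusted p = 0.210) overlapped between the stages. Set side by side, P14 KO samples held more Adora1 than P14 CTRL samples, which in turn held more than P90 CTRL samples, and Gnao1 was far higher in P14 KO than in CTRL samples of either stage.

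The rest of the pathway was read from 10 lists of 155 genes, of which 154 were in the table. These lists were also chosen with earlier results of these data known. In neonatal KO, 119 had enough counts to be tested and 13 of these passed, 7 as higher and 6 as lower, beside 8.59% of all genes. Their median log2 fold change was 0.03. Of 13 other receptors of these families, 3 were tested and 0 passed (1 at an unadjusted p under 0.05, as were 25.6% of all genes, and 0 by DESeq2, which called 14.1% of all genes). Among them, Adora2a, an adenosine receptor that uses Gs, was at 2.29 ± 0.82 CPM in P14 CTRL and Adra1d, an alpha1-adrenergic receptor, at 0.91 ± 0.23 CPM. Of 18 other G protein subunits, 0 passed (7 at an unadjusted p under 0.05 and 3 by DESeq2, beside the same 25.6% and 14.1% of all genes). Gnai2, an inhibitory alpha subunit, was at 161 ± 20.9 CPM in P14 CTRL and 219 ± 14.3 CPM in P14 KO (log2 fold change 0.44 ± 0.12, adjusted p = 0.0584).

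Of the 18 receptor kinases, arrestins and RGS genes tested, 2 passed, both as higher, beside 3.99% of all genes as higher, and the median log2 fold change of the list was 0.10. Rgs11, which speeds the switching off of Gi and Go alpha subunits, rose 3.73-fold, from 4.26 ± 0.90 to 15.9 ± 3.34 CPM (1.90 ± 0.23 on the log2 scale, adjusted p = 0.00699), and held in 13 of 13 other settings. Grk5, a kinase that desensitizes receptors, rose 4.28-fold, from 4.87 ± 2.66 to 20.7 ± 9.77 CPM (2.10 ± 0.45, adjusted p = 0.0274). Adcy7, another cyclase, went from 2.10 ± 0.39 to 4.98 ± 1.57 CPM (1.25 ± 0.31, adjusted p = 0.0445). Prkcd, a protein kinase C downstream of Gq, went from 6.47 ± 0.99 to 13.2 ± 3.68 CPM (1.03 ± 0.24, adjusted p = 0.0352). With 6 libraries left out in turn, Grk5 passed 2 times, Prkcd 1 time and Adcy7 0 times.

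Genes for adenosine supply moved on both sides. Nt5e, the ecto-enzyme CD73 that makes adenosine from AMP outside the cell, rose 2.72-fold from 51.1 ± 6.47 to 139 ± 9.50 CPM (1.44 ± 0.13, adjusted p = 0.00216) and held in 13 of 13 other settings. Nt5c2, a cytosolic nucleotidase, rose by 0.70 ± 0.16 (adjusted p = 0.0316). Adk, the kinase that returns adenosine to AMP, fell by 0.80 ± 0.19 (adjusted p = 0.0385), and Slc29a2, a nucleoside transporter, fell by 0.89 ± 0.16 (adjusted p = 0.0190). With 6 libraries left out in turn, Adk passed 1 time and Slc29a2 3 times. The other 9 of 13 genes of this list did not pass, where 8.59% of all genes tested passed.

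Among channels, Hcn4, the main pacemaker channel of the sinus node, rose from 7.98 ± 2.40 to 17.0 ± 1.19 CPM (1.09 ± 0.21, adjusted p = 0.0209), and Hcn2, its ventricular relative, fell from 63.6 ± 4.65 to 33.9 ± 7.73 CPM (-0.91 ± 0.17, adjusted p = 0.0189). Pde1c, a phosphodiesterase that breaks down cyclic nucleotides, fell by 0.71 ± 0.13 (adjusted p = 0.0173), as did Akap7, an anchor for protein kinase A, by 0.80 ± 0.18 (adjusted p = 0.0342), and Prkar2a, a regulatory subunit of that kinase, by 0.56 ± 0.14 (adjusted p = 0.04997). Of 4 genes for catecholamine uptake and breakdown tested, 0 passed. At an unadjusted p under 0.05 there was 1, beside 25.6% of all genes, and by DESeq2 1, beside 14.1%. Leaving out P14 KO replicate 2 reduced the 13 calls to 2. Leaving out P14 KO replicate 3, P14 KO replicate 1 or P14 CTRL replicate 1 reduced them to 3, 5 and 6. How the calls over all genes changed in these smaller fits was not worked out, so the falls cannot be read as particular to these lists. Rgs11 and Nt5e held without any 1 library. With 6 libraries left out in turn, Hcn2 and Pde1c each passed 4 times, Hcn4 3 times, Akap7 2 times and Prkar2a 1 time.

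**Figure D4:**
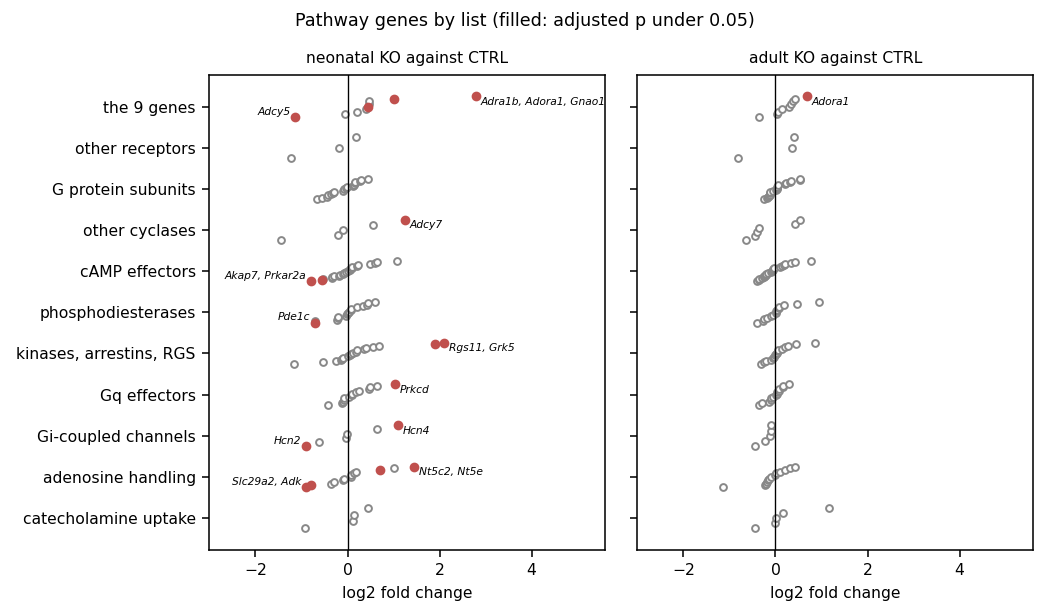
Log2 fold change (x axis) of each tested gene of the 9 genes and of 10 pathway lists (rows) in neonatal KO (left) and adult KO (right); filled red points have an adjusted p under 0.05 and are named at the edge of their row. In neonatal KO, 7 pathway genes passed as higher and 6 as lower, and in adult KO 0 did.

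In adult KO, 0 of the 117 pathway genes tested passed by edgeR, and 1 passed without P90 CTRL replicate 2. At an unadjusted p under 0.05 there were 17, beside 16.2% of all genes. DESeq2 called 4, beside 3.94% of the 8910 genes it gave an adjusted p. In the direct test between stages, 3 of 124 passed, a share near the 1.78% of all genes. The neonatal minus adult effect was 1.55 ± 0.28 for Hcn4 (adjusted p = 0.0227), 1.04 ± 0.23 for Nt5e (adjusted p = 0.0440) and -0.89 ± 0.20 for Pde1c (adjusted p = 0.0454). Each of these was lost when some single libraries were left out: with 12 libraries left out in turn, Hcn4 passed 6 times, Nt5e 4 times and Pde1c 0 times.

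Between CTRL stages, 40 of 122 pathway genes passed, 23 as higher and 17 as lower at P90, beside 29.3% of all genes. Maob, a monoamine oxidase that breaks down catecholamines, rose 4.48-fold (2.16 ± 0.11, adjusted p = 1.66e-05), and Pkia, an inhibitor of protein kinase A, rose 3.32-fold (1.73 ± 0.15, adjusted p = 0.000141). Kcnj3, a subunit of the potassium channel that acetylcholine opens, rose 2.39-fold (1.26 ± 0.18, adjusted p = 0.00134), and the cyclase gene Adcy8 rose from 0.42 ± 0.11 to 2.56 ± 0.62 CPM (2.60 ± 0.38, adjusted p = 0.00160). Gnai1, an inhibitory alpha subunit, fell by 1.98 ± 0.24 (adjusted p = 0.000702), Rgs2 fell by 2.03 ± 0.22 (adjusted p = 0.000397) and Rgs11 fell by 3.01 ± 0.36 (adjusted p = 0.000597). Rgs11 was at 0.50 ± 0.16 CPM in P90 CTRL. All 7 of these genes held in 13 of 13 other settings. The number of pathway calls ranged from 27, without P14 CTRL replicate 1, to 59, without P14 CTRL replicate 2.

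For each of the 9 genes, the genes with the most similar pattern were found by Pearson's r of log2(CPM + 1) over the 12 samples, among 9458 other genes with a mean of at least 5 CPM. These correlations describe the samples, which share groups, stage and tables. Adora1 was closest to Ttc5 (r = 0.99) and Cttn (0.98), Adra1a to E430025E21Rik (0.96) and Ppfibp2 (0.96), Adra1b to Hspa2 (0.97) and Sap30 (0.95), Adrb1 to Gata4 (0.93) and Usp20 (0.92), and Chrm2 to Acbd4 (0.89) and Itgb5 (0.88). Gnao1 was closest to Bcr (0.97) and Sorbs2 (0.94), and Gnas to Eif3h (0.96) and Blvrb (0.95). Adcy5 was closest to Mgrn1 (0.94) and Ckm (0.94), and Adcy6 to Myocd (0.95) and Azin1 (0.95).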

How the data were processed

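RNA-seq was analysed in 12 samples of sorted CMs in 4 groups of 3, assigned by their titles. As the labels and methods state, polyA RNA was amplified with SMART-Seq v4, libraries were made with Nextera XT, and single-end reads were processed with CASAVA 1.8, aligned to mm10 with STAR 2.5.3a and counted with featureCounts (Subread 1.5.2). The values are raw counts per gene, deposited by the authors in 2 tables, 1 per stage; how strand and multi-mapped reads were handled is not given in the sources used here. The study tested with DESeq2.

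The analysis used edgeR 4.0.16 in R 4.3.3, with filterByExpr, TMM scaling, the quasi-likelihood F-test and Benjamini-Hochberg adjustment over all genes tested, at 0.05. The KO and CTRL samples of a stage were fitted alone, the CTRL stages on 6 CTRL samples and the interaction on all 12. The SE is the absolute log2 fold change divided by the square root of F. CPM and RPKM use TMM factors over all 12 samples and the exon lengths of the tables. Alternatives were DESeq2 1.42.0, RLE factors, no filter, a replicate block, a term for Y-linked counts, a gene-length correction (span 0.5), a fit of all 12 samples, total-count scaling of levels, and leaving out each sample. The Y-linked term marks libraries with at least 100 Y-linked counts. The scripts were first tested on simulated data. P-values measure the spread between these samples, and counting floors cover counting error only, since reads carry no molecular identifiers.

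The 9 genes, the pathway lists and the marker lists were chosen with earlier results of these data known. The genes named are the 9, Srf, up to 3 genes per pathway list and comparison past the threshold with the largest change and a mean of at least 1 CPM, markers, and the 2 genes most correlated with each of the 9; Nt5c2, Gnai2 and Adora2a were named after their values were seen. Promoter sequences were taken from RefSeq (GRCm38.p6), with 7 of 9 genes matched. Single values of some list genes are not reported here.

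KO and CTRL titles share replicate numbers. Deviations of same-numbered samples from their group means correlated with r = 0.128, 0.122 and 0.444 in the neonatal tables, all above the limit set for treating them as pairs, so the blocked value is given where it changes a neonatal call; crossing replicates 1 and 2 gave similar values (0.163 and 0.140), and no source states a pairing.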

Additional observations from a re-analysis of the deposited data

Results flagged for a closer look

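By edgeR's quasi-likelihood test the stage by genotype interaction passed for 1 of the 9 genes and 3 of 124 pathway genes tested. Of all genes tested, 1.78% passed. The 3 pathway genes are named because they passed, so their number among named genes is no result. Stage goes together here with the time from virus to collection and with the processing of each stage's samples. With 12 libraries left out in turn, Gnao1 passed 10 times, Hcn4 6 times, Nt5e 4 times and Pde1c 0 times. The neonatal minus adult KO effect on the log2 scale was 2.36 for Gnao1 (adjusted p = 0.0154), 1.55 for Hcn4 (adjusted p = 0.0227), 1.04 for Nt5e (adjusted p = 0.0440) and -0.89 for Pde1c (adjusted p = 0.0454). For Gnao1 the 3 P14 KO samples lay at 39.8 to 50.3 CPM, and the other 9 samples lay at 3.76 to 16.7 CPM. Hcn4 was higher than CTRL in all P14 KO samples (15.8 to 18.2 against 6.23 to 10.7 CPM) and lower than CTRL in all P90 KO samples (5.90 to 6.89 against 7.51 to 10.5 CPM), and the adult difference alone did not pass (-0.45 ± 0.18, adjusted p = 0.250). With 3 samples a group, single samples could not be screened as outliers.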

How the results depend on the processing

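Counts of calls depended on the setting more than the leading fold changes did. Neonatal calls among the 9 genes (4) became 5 with DESeq2, no filter, the replicate block and the fit of all 12 samples, and ranged from 2 to 5 when 1 sample was left out. Neonatal pathway calls (13) became 22 with DESeq2 and 22 in the fit of all 12 samples, and ranged from 2 to 12 with 1 sample left out. Adult calls among the 9 genes (1) became 2 with DESeq2, 4 with no low-count filter, 3 with the replicate block, 0 with the term for Y-linked counts and 0 in the fit of all 12 samples, and ranged from 0 to 1 with 1 sample left out. In the adult fit the term for Y-linked counts in effect leaves out P90 CTRL replicate 3. Adult pathway calls (0) became 4 with DESeq2, 2 with no filter, 4 with the replicate block and 3 with the gene-length correction, and ranged from 0 to 1. Interaction calls among the 9 genes (1) became 2 with DESeq2, 2 with no filter and 2 with the block, and ranged from 0 to 1; interaction pathway calls (3) became 12, 7 and 7 in those settings and 1 with the term for Y-linked counts, and ranged from 0 to 4. CTRL stage calls among the 9 genes (2) became 4 with no filter and 5 in the fit of all 12 samples, and ranged from 2 to 4; its pathway calls (40) ranged from 27 to 59. DESeq2 called 14.1% of 12671 genes in the neonatal, 3.94% of 8910 in the adult and 9.39% of 9717 in the interaction comparison. These are the genes it gave an adjusted p, as in all DESeq2 shares here. In these comparisons edgeR called 8.59% of 12546, 0.39% of 11808 and 1.78% of 12841 genes, and the block 12.2%, 5.55% and 5.35%. Shares over unlike numbers of genes are not directly comparable. For the other settings and with 1 sample left out, the share of all genes was not worked out. Counts of calls in those settings therefore have no such share beside them. The causes of the differences between settings were not tested.

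Same-numbered samples correlated at 0.249, 0.010 and 0.069 in the adult comparison and at -0.074, -0.072 and -0.019 between CTRL stages. These correlations do not show pairs there and, with 3 samples in a group, cannot exclude them. In the adult comparison the block called 5.55% of all genes, against 0.39% without it. With the replicate block, Gnas (adjusted p = 0.0386) and Adra1b (0.0452) joined Adora1 in the adult comparison, Adcy5 (0.0486) joined Gnao1 in the interaction, and Adra1b (0.0427) joined the CTRL stage calls; in the neonatal comparison only Adcy6 among the 9 genes changed its call.

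Scaling to total counts shifted the median of all genes by 0.20 (log2) in the neonatal and -0.11 in the CTRL stage comparison; Adora1, Adra1b, Gnao1, Gnas and Adcy6 stayed higher and Adcy5 lower in neonatal KO, and Adra1a turned to 0.18, near that shift. Depth limits Adra1a at P14, which rests on 26 to 164 counts per library.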
